A study of Homo sapiens with 3 samples.

Results

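MYC binding was examined at 8 genes of the BCL2 family, the group of proteins that decides whether the mitochondrial pathway of cell death is switched on. The genes were BCL2, BCL2L1 and MCL1, whose products keep cells alive, BCL2L11, BBC3 and PMAIP1, which encode BH3-only killers, and BAX and BAK1, which encode the effectors. Members were chosen by name, and a listed MYC region was counted for a gene when its summit lay within 5 kb of the gene's hg19 start site. By this rule 12 of the 31378 regions in the list of untreated cells and 13 of the 27614 regions in the MST-312 list belonged to the 8 genes. The data came from ChIP-seq, in which DNA bound by a protein is precipitated with an antibody and sequenced, in P493, a human B cell line whose MYC transgene can be repressed with tetracycline. The series holds 3 samples: MYC ChIP from cells without treatment, MYC ChIP from P493 cells treated with MST-312, a compound that inhibits telomerase, both with the N262 antibody, and an input library of untreated cells that served as the control for both lists. The sources used here give neither the dose and duration of MST-312 nor whether the MYC transgene was left on. With a single library per condition, differences have no replicate check, and conditions were compared without a test. The identity of the cells was not checked, since binding data give no marker levels.

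The mitochondrial pathway turns on a balance between these proteins. BAX and BAK1 open pores in the outer mitochondrial membrane, pro-survival members such as BCL2 hold them back, and BH3-only proteins bind the pro-survival members or activate the effectors directly. MYC, a transcription factor that binds E-box DNA together with its partner MAX, drives proliferation and is also known for sensitising cells, lymphoid cells among them, to apoptosis.

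All 8 genes had a listed MYC region in both lists. Of the 12 untreated regions, 10 overlapped an MST-312 region by at least 1 bp, against 53.6% of all untreated regions, and the other 2 both lay at BAK1. All 13 MST-312 regions overlapped an untreated region, against 63.3% of that whole list. The value compared was the summit pileup, the number of extended 200 bp fragments over the summit of a region. It was lower in the MST-312 list in each of the 10 overlapping pairs, from 1 fragment lower at BCL2L1 to 52.2% lower at BBC3, against 85% of all overlapping pairs. Scaled to the tags each library kept, it was lower in 7 of the 10 and slightly higher in the other 3, at BCL2L1, BBC3 and BCL2L11. As a background for presence, 8.3% of genome positions lay within 5 kb of an untreated summit and 7.65% within 5 kb of an MST-312 summit, but start sites are not typical positions and the same share over all start sites was not computed. The untreated library kept 60805153 tags after duplicate removal and the MST-312 library 55400354, with redundant rates of 0.24 and 0.49, and what part these differences have in lower pileups was not tested. Brackets and ranges given with pileups and ratios are exact 95% Poisson or conditional binomial intervals. They cover counting error only, and not the spread between cultures, and reads lacking molecular identifiers may repeat the same molecule.

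**Figure D1:**
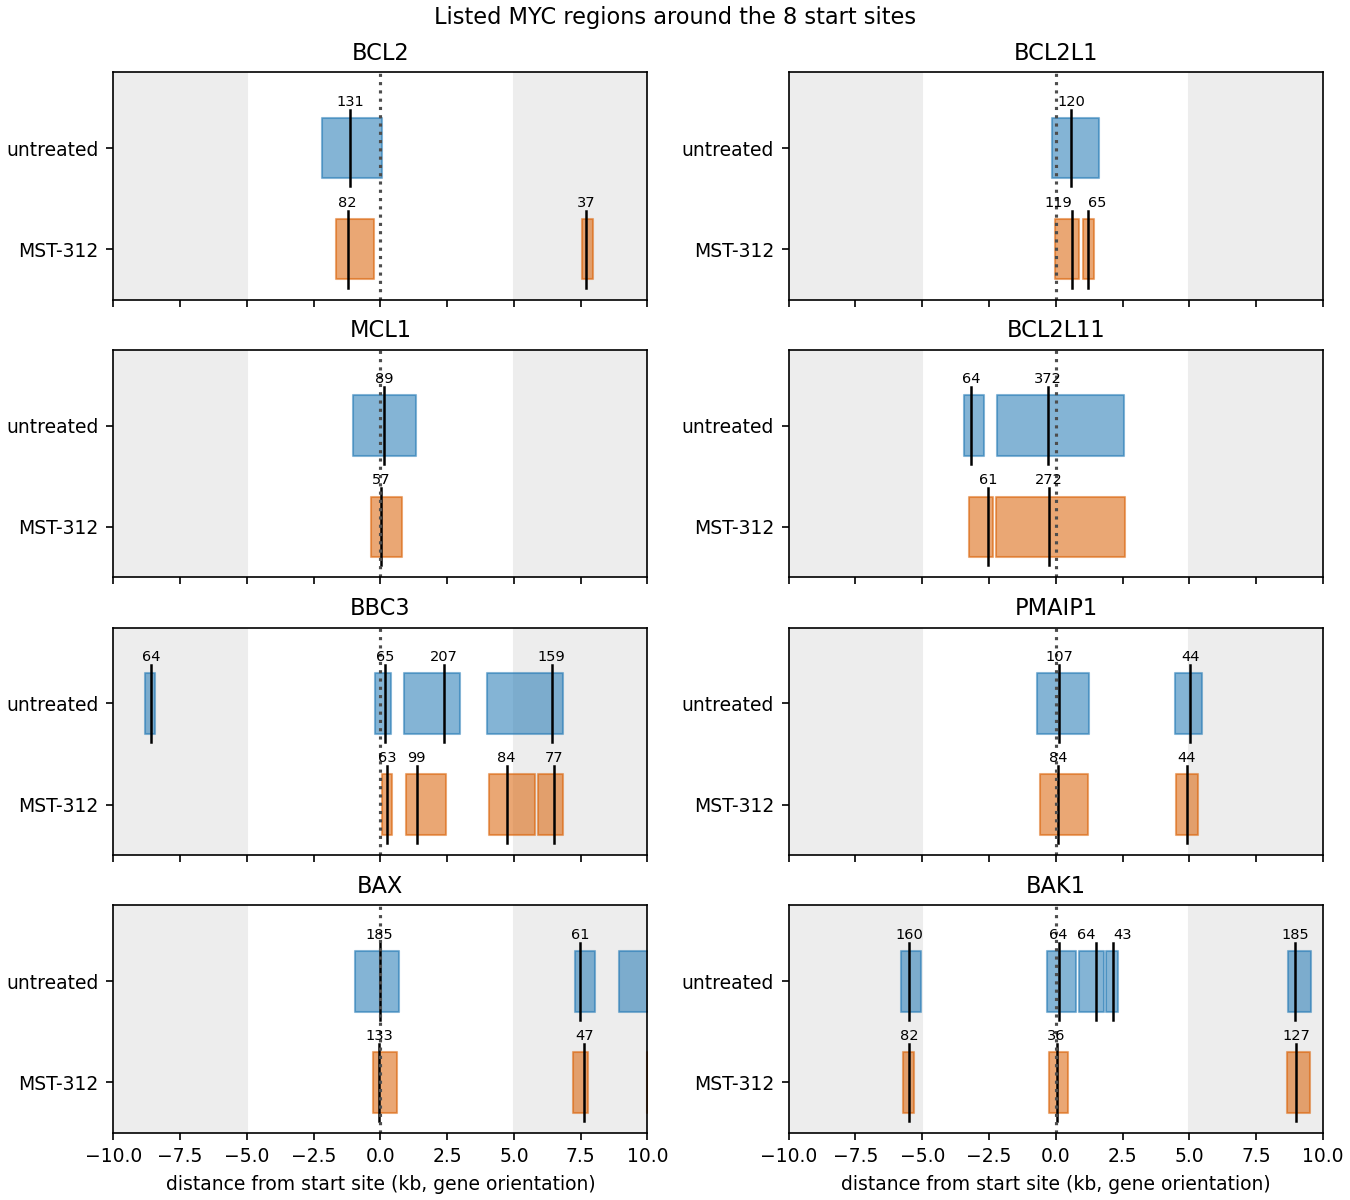
Listed MYC regions of the untreated list (blue, upper row) and the MST-312 list (orange, lower row) by distance from each start site in kb, with upstream to the left. Black ticks are summits with their pileup in fragments, white marks the 5 kb on either side, and grey the ground beyond it. BCL2L11 has the broadest region in both lists, and 2 of the 3 untreated regions at BAK1 have no MST-312 region under them.

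BCL2, the founding pro-survival gene, is read from the minus strand of chromosome 18 with its start site at 60986613. Its single untreated region (60986555 to 60988795, 2241 bp) had a summit 1141 bp upstream of the start site and a pileup of 131 fragments (110 to 155). The MST-312 region (60986852 to 60988288, 1437 bp) had a summit 1228 bp upstream and a pileup of 82 (65.2 to 102). The MST-312 pileup was thus 0.63 of the untreated one (0.47 to 0.83). Of the strongest regions of the 8 genes, these lay furthest upstream of a start site. The untreated region passed the start position used here by only 58 bp, and the MST-312 region ended short of it. The MST-312 region was shorter by 507 bp on its upstream side and by 297 bp on the side of the gene. Since the start position was not checked against an annotation, a loss of MYC over the BCL2 start is not shown.

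BCL2L1 encodes the pro-survival protein BCL-XL and starts at 30311792 on the minus strand of chromosome 20. Untreated cells had 1 region there (30310187 to 30311945, 1759 bp), with a pileup of 120 fragments (99.5 to 143) at a summit 570 bp downstream of the start site. The MST-312 list had 2 regions in its place. The one nearer the start site (30310907 to 30311826, 920 bp) peaked 610 bp downstream with 119 fragments (98.6 to 142), and the other (30310380 to 30310775, 396 bp) peaked 1214 bp downstream with 65 (50.2 to 82.8). The pileup at the main summit was therefore nearly the same in both lists, with a ratio of 0.99 (0.76 to 1.29). Scaled to kept tags the ratio was 1.09, so the direction flips with the scaling.

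MCL1, a pro-survival gene whose protein turns over quickly, starts at 150552214 on the minus strand of chromosome 1. The untreated region (150550894 to 150553250, 2357 bp) had 89 fragments (71.5 to 110) at a summit 143 bp downstream of the start site. In the MST-312 list the region (150551388 to 150552554, 1167 bp) had 57 fragments (43.2 to 73.9) at 32 bp downstream. The ratio was 0.64 (0.45 to 0.90). The region was shorter on both sides, by 696 bp upstream and 494 bp downstream, and its remaining part still covered the start site.

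BCL2L11 carried by far the strongest MYC signal of the 8 genes. It encodes BIM, a BH3-only protein that binds all the main pro-survival members, and starts at 111878491 on the plus strand of chromosome 2. The main untreated region (111876282 to 111881050) was 4769 bp wide and had 372 fragments (335 to 412) at a summit 287 bp upstream of the start site, rank 323 of 31378 by pileup. The main MST-312 region (111876257 to 111881064) was 4808 bp wide and had 272 fragments (241 to 306) at 269 bp upstream, rank 176 of 27614. The pileup ratio was 0.73 (0.62 to 0.86), while the edges of the region moved outward by 25 and 14 bp. A small neighbour further upstream had 64 fragments (49.3 to 81.7) at 3179 bp in the untreated list and 61 (46.7 to 78.4) at 2539 bp in the MST-312 list. For that neighbour the ratio was 0.95 (0.66 to 1.38), and it was 1.05 scaled to kept tags and 1.14 after subtraction of local background. Its summits were 640 bp apart, and the local background there was 17.4 fragments at the untreated and 7.91 at the MST-312 summit.

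BBC3 showed the lowest pileup ratio among the 10 pairs. The gene encodes PUMA, a BH3-only protein best known as a target of p53, and starts at 47736023 on the minus strand of chromosome 19. Its strongest untreated region (47733042 to 47735148, 2107 bp) had 207 fragments (180 to 237) at a summit 2369 bp downstream of the start site. The overlapping MST-312 region (47733561 to 47735078, 1518 bp) had 99 fragments (80.5 to 121) at 1360 bp downstream, a ratio of 0.48 (0.37 to 0.61). These summits were 1009 bp apart, so the values come from different places within the region, and the local background was 10.4 fragments at the first and 13.2 at the second. Close to the start site the signal differed little. A region of 603 bp with 65 fragments (50.2 to 82.8) at 186 bp downstream stood against one of 379 bp with 63 (48.4 to 80.6) at 244 bp, a ratio of 0.97 (0.67 to 1.39), or 1.06 scaled to kept tags.

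A further BBC3 region entered only the MST-312 count. It ran from 47730249 to 47731960 with 84 fragments (67.0 to 104) at 4724 bp downstream of the start site. The untreated region over the same ground (47729172 to 47732036, 2865 bp, 159 fragments) peaked 6410 bp downstream, outside the 5 kb limit. That untreated region was split in the MST-312 list, whose other piece (47729178 to 47730137, 960 bp) had 77 fragments at 6482 bp downstream, the summit nearer to the untreated one. PMAIP1 likewise had a region counted in the MST-312 list alone, with 44 fragments at 4902 bp downstream in the MST-312 list and 44 at 5040 bp in the untreated list. Both places were listed in untreated cells too, so neither extra region is a place listed after MST-312 alone. At PMAIP1 the limit fell between the summits, and at BBC3 the split added a summit inside it.

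PMAIP1 encodes NOXA, a BH3-only protein that mainly neutralises MCL1, and starts at 57567192 on the plus strand of chromosome 18. Its untreated region (57566501 to 57568422, 1922 bp) had 107 fragments (87.7 to 129) at 115 bp downstream of the start site. The MST-312 region (57566582 to 57568394, 1813 bp) had 84 fragments (67.0 to 104) at 72 bp downstream. The ratio was 0.79, with an interval of 0.58 to 1.05 that includes equal pileups.

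BAX, an effector gene, starts at 49458117 on the plus strand of chromosome 19, and MYC peaked almost exactly on its start site in both lists. The untreated summit lay 21 bp upstream with 185 fragments (159 to 214), in a region of 1644 bp (49457179 to 49458822). The MST-312 summit lay 46 bp upstream with 133 fragments (111 to 158), in a region of 895 bp (49457843 to 49458737). The ratio was 0.72 (0.57 to 0.90). Nearly all of the lost width was on the upstream side, 664 bp against 85 bp downstream.

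The DNA just upstream of the BAX start site is dense in the canonical E-box. The RefSeq promoter table (build GRCh38.p14) held sequence for 7 of the 8 genes, in 8 entries since BCL2L1 has 2 start sites there; MCL1 had no entry. The 250 bases before each start were searched for CACGTG, the canonical E-box that MYC and MAX bind, and for the general form CANNTG, which includes it; both read the same on either strand. BAX held 4 copies of CACGTG, which began 138, 93, 45 and 14 bases before the start, and 5 matches to CANNTG. BBC3 held 1 copy, which began 232 bases before the start, and 2 matches to CANNTG. The other 6 entries, those of BCL2, BCL2L1, BCL2L11, PMAIP1 and BAK1, held neither. Over all 35116 entries of the table, 6.34% held CACGTG, 61.8% held CANNTG, and 5 entries held 4 or more copies of CACGTG. The 3 windows printed here are those of the 2 genes with a canonical E-box and of BCL2L11, the gene with the highest pileup. All run 5′ to 3′ on the strand of the gene, with CACGTG in capitals: BAX is chr19:48954625-48954874 on the plus strand, BBC3 is chr19:47232668-47232917 on the minus strand and BCL2L11 is chr2:111120664-111120913 on the plus strand.
BAX: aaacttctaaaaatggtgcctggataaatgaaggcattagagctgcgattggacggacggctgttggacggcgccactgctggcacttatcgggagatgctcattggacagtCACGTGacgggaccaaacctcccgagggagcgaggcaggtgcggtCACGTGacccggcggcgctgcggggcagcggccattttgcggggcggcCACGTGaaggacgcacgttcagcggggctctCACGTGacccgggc
BBC3: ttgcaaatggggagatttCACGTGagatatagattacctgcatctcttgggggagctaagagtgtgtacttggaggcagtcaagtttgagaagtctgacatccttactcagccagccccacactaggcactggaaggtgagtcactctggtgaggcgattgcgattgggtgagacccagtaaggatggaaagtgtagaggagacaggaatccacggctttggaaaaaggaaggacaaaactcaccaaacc
BCL2L11: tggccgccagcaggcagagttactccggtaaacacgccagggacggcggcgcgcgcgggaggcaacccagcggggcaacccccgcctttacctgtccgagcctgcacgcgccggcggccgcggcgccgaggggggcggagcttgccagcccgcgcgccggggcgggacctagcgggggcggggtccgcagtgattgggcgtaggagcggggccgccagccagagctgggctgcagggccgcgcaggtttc
A match is a description of the letters and not evidence of a bound site, and a window without a match says nothing about MYC there. The windows are in another build than the regions, so they were not laid over the summits. The BCL2L11 window is 76.8% G and C with 34 CpG dinucleotides, PMAIP1 72.8% with 36 and BCL2 70.0% with 24. BAX had 62.8% with 25, BBC3 49.2% with 4 and BAK1 58.0% with 5, against medians of 58.0% and 11 over the table. The 2 BCL2L1 entries had 50% with 17 and 60.4% with 12. BCL2L11 and BAX, whose strongest regions covered the start site, were thus above the table's medians on both measures, and BBC3 was below them. PMAIP1, BCL2 and the BCL2L1 entry with 60.4% were above both medians too. The strongest untreated regions of PMAIP1 and BCL2 also covered the start site, with lower pileups of 107 and 131 fragments. The strongest untreated BBC3 region, with 207 fragments, peaked 2369 bp downstream and did not cover the start site. The untreated BBC3 region over the start site had 65 fragments, so the base content of this window is not that of the strong BBC3 region.

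BAK1, the other effector gene, starts at 33548070 on the minus strand of chromosome 6. Within 5 kb of the start site it had the lowest MYC pileup of the 8 genes in both lists. In the untreated list the interval of its ratio to MCL1 included equal pileups (0.72, 0.51 to 1.00). The low place depends on the 5 kb limit. Just outside it, untreated regions had 160 fragments at 5494 bp upstream and 185 at 8965 bp downstream. Their MST-312 partners had 82 and 127 fragments. Untreated cells had 3 regions in a row over the first part of the gene. The one over the start site (33547302 to 33548409, 1108 bp) had 64 fragments (49.3 to 81.7) at 105 bp downstream. Its MST-312 counterpart (33547612 to 33548323, 712 bp) had 36 (25.2 to 49.8) at 25 bp downstream, a ratio of 0.56 (0.36 to 0.86). With a −log10 q of 15.9, this MST-312 region stood close to the lowest value in its list, 13.02, and it was the only member left without a region at a −log10 q of at least 26.

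The 2 untreated BAK1 regions without a partner lay downstream of the first. One (33546251 to 33547198, 948 bp) had 64 fragments at 1502 bp and a −log10 q of 28.4, and its nearest MST-312 region was 414 bp away. The other (33545738 to 33546201, 464 bp) had 43 fragments at 2137 bp and a −log10 q of 14.7, with the nearest MST-312 region 1411 bp away. Since the MST-312 list ends at a −log10 q of 13.02, binding below that level may be present there and unlisted.

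**Figure D2:**
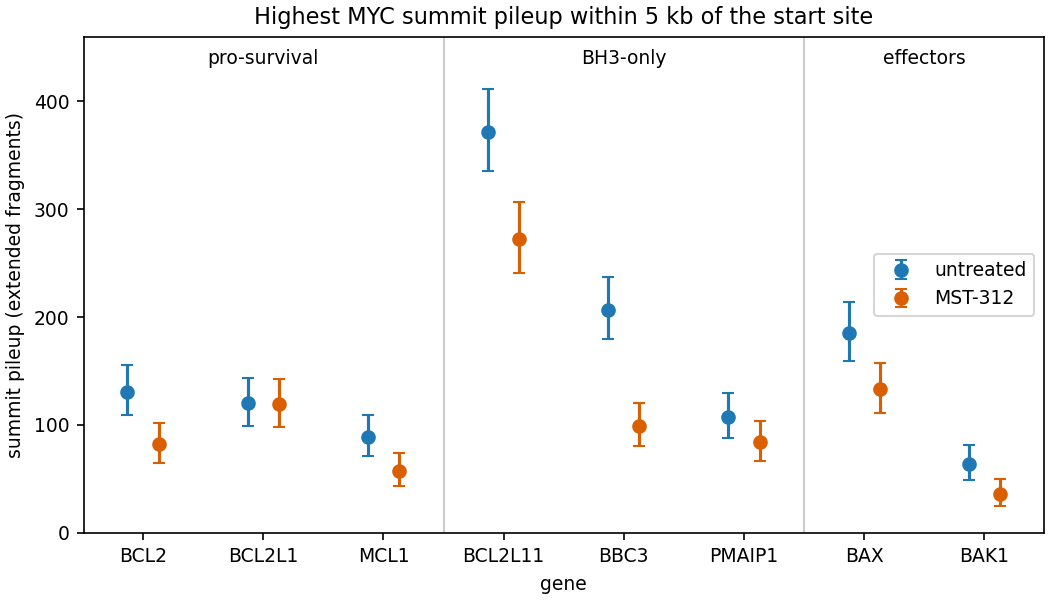
Highest MYC summit pileup in extended fragments within 5 kb of each start site, in the untreated list (blue) and the MST-312 list (orange), 1 library each. Bars are exact 95% Poisson intervals for counting error; the untreated value is the higher one at all 8 genes, by 1 fragment at BCL2L1.

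Ordered by the highest pileup within 5 kb, the untreated genes ran BCL2L11 (372), BBC3 (207), BAX (185), BCL2 (131), BCL2L1 (120), PMAIP1 (107), MCL1 (89) and BAK1 (64). In this order BCL2L11 stood above BBC3 and BAX above BCL2 by more than counting error, and the other 5 pairs of neighbours had a ratio whose interval included 1. The MST-312 order was BCL2L11 (272), BAX (133), BCL2L1 (119), BBC3 (99), PMAIP1 (84), BCL2 (82), MCL1 (57) and BAK1 (36), where BCL2L11 over BAX, BCL2 over MCL1 and MCL1 over BAK1 exceeded counting error. BCL2L11, MCL1 and BAK1 kept their places at the top and the bottom. BBC3 went from the second place to the fourth, and BCL2L1 from the fifth to the third. Each list was also divided by pileup into 10 classes of equal size. BCL2L11, BBC3 and BAX were in the strongest class of the untreated list, and BCL2L11, BAX and BCL2L1 in that of the MST-312 list.

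Presence of the 8 genes in both lists can be set beside all regions. A partner was found for 10 of the 12 untreated member regions, 83.3% (exact Clopper-Pearson 95% interval 51.6 to 97.9), against 53.6% of all untreated regions. For the MST-312 regions it was 13 of 13 (75.3 to 100%) against 63.3%. The member regions were also stronger than most, with a median pileup of 98 fragments in the untreated list against 62 over the whole list, and of 82 against 50 in the MST-312 list. Partners were more frequent at higher pileup. In the class of untreated regions from 62 to 75 fragments, which holds the BAK1 pair, the small BBC3 and BCL2L11 pairs and the larger of the BAK1 regions without a partner, 59.1% had one. The other BAK1 region without a partner fell in the class from 40 to 46 fragments, where the share was 22.3%. In the class from 94 to 123, which holds BCL2L1 and PMAIP1, it was 89.4%, and in the strongest class 99.6%.

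The fall in pileup at these genes was close to that of overlapping regions at large. The median ratio of MST-312 to untreated pileup was 0.73 over the 10 pairs and 0.69 over all 16803 pairs. The MST-312 pileup was lower in 10 of 10 member pairs, against 85% of all pairs. Scaled to kept tags it was lower in 7 of 10, the exceptions being BCL2L1 and the small regions of BBC3 and BCL2L11, against 78.3%. A fall of at least 1.5-fold was seen in 4 of 10 pairs (BCL2, MCL1, BBC3 and BAK1), against 45.6% of all pairs. The counts were near the background, so they show nothing particular to the BCL2 family. By role, the median ratio was 0.64 over 3 pro-survival pairs, 0.79 over 5 BH3-only pairs and 0.64 over 2 effector pairs. The lowest and the second highest ratio both belonged to BBC3, so the ratios did not sort by role.

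**Figure D3:**
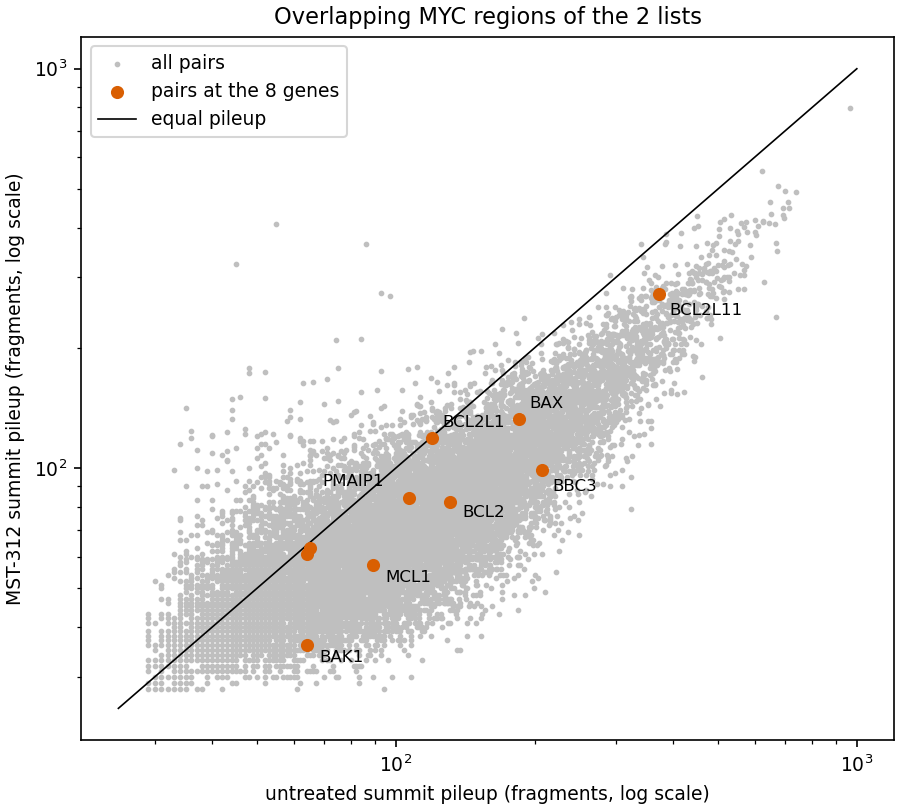
MST-312 against untreated summit pileup in fragments (both axes logarithmic) for all 16803 overlapping pairs (grey) and the 10 pairs at the BCL2 family genes (orange). The unlabelled orange points are the small regions of BCL2L11 and BBC3; all 10 lie below the line of equal pileup, within the grey cloud.

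The ratio also varied with the untreated pileup itself, from a median of 1.10 in the weakest of the 10 classes to 0.57 in the strongest, so each pair was set beside the pairs of its own class. This comparison was chosen after the values were seen. The trend across classes does not measure what MST-312 did to weak and strong regions. The classes are set by the denominator of the ratio, and only regions listed in both lists enter. In the weakest class 192 of 3137 untreated regions had a partner, in the strongest 3127 of 3138. How much of the trend comes from this was not tested. BCL2L1 stood highest: 94.2% of the pairs in its class had a lower ratio. BCL2L11 (87.1%) and BAX (85.7%) also kept more of their pileup than most strong pairs, whose median ratio was 0.57 with quartiles at 0.49 and 0.66. BAK1 stood lowest, with 6.85% of its class at a lower ratio, followed by the main BBC3 region with 20.5%. In all, 6 of the 10 pairs lay above the upper quartile of their class, 2 below the lower one and 2 between them, the pairs of BCL2 and MCL1. By definition, the shares of a class above its upper and below its lower quartile are equal, and together match the share between them. Of the 6, PMAIP1 (0.785 against 0.778) and the small BCL2L11 pair (0.953 against 0.945) passed narrowly. Whether the 10 pairs differ from their classes was not tested. The counting interval of each of these 10 pairs reached into the quartile range of its class.

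**Figure D4:**
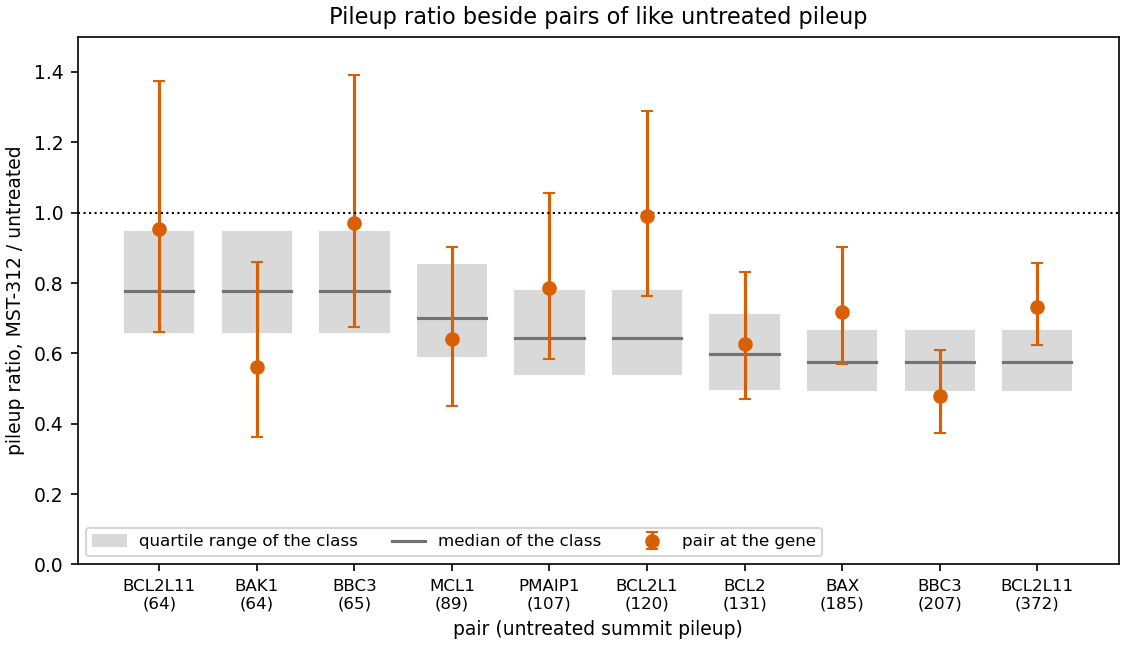
Ratio of MST-312 to untreated summit pileup for the 10 pairs at the BCL2 family genes (orange, with exact 95% intervals for counting error), ordered by untreated pileup in fragments. Grey boxes and lines give the quartile range and median of all pairs in the same class of untreated pileup; BCL2L1 lies farthest above its box and BAK1 below it.

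Most paired regions at the 8 genes were narrower in the MST-312 list. In 8 of 10 pairs the MST-312 region was the narrower one, against 74.5% of all pairs, and the exceptions were the 2 regions of BCL2L11. The median ratio of widths was 0.64 over the member pairs and 0.83 over all pairs. The member regions were wider to begin with, with an untreated median of 1701.5 bp against 678 bp over the whole list. Pairs of like untreated width were not compared, so these medians do not show extra narrowing at the 8 genes. The ratio was lowest at MCL1 (0.50), BCL2L1 (0.52, where the listed ground was split in 2) and BAX (0.54), and highest among the main regions at BCL2L11 (1.01) and PMAIP1 (0.94). BAX and BCL2L11 thus had nearly equal pileup ratios, 0.72 and 0.73, and differed in width. Summed listed length compared the other way from the pairs. Its ratio of MST-312 to untreated was 0.85 over the member regions and 0.73 over the whole lists. By gene this ratio was above 1 at PMAIP1 (1.38), BBC3 (1.33) and BCL2L11 (1.03), and below 1 at the others. At PMAIP1 and BBC3 the MST-312 sum includes the region counted in that list alone. All 8 genes had an untreated region over the hg19 start position used here, and 6 had an MST-312 region there. The 2 others were BCL2, whose MST-312 region ended upstream, and BBC3, whose MST-312 region began 60 bp downstream. These distances are short, and the untreated BCL2 region itself passed the position by only 58 bp. The start positions were not checked against an annotation, and other start positions could change this count. It therefore does not show that MYC was lost from either start.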

How the data were processed

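MYC ChIP and input DNA of P493 cells were sequenced as single reads. The submitters' processing notes name CASAVA 1.8, Bowtie2 2.2.3 and the build hg19. Per the file headers, the authors called peaks in each MYC library with MACS2 2.0.10.20131216 against the same input, with 200 bp fragments, up to 3 duplicates kept per position, a p threshold of 0.05 and local background over 1000 and 10000 bp. The deposited pileup is a signal, the count of extended fragments at the summit. It is unscaled, since the file headers state scaling of the larger set down to the smaller, and the input kept the most tags (63069522). The deposited fold enrichment is a ratio to the local background from the input, with 1 added to both terms in the values. The deposited −log10 q values start at 13.01 and 13.02, so weaker calls are not listed; the filter is not stated.

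Start sites are hg19 positions set with the choice of genes. They were not checked against an hg19 annotation, which was not used here; for the same reason the wider apoptosis list, marker genes and exon or intron positions were not analysed here. Strands were checked in the RefSeq table for 7 genes; that of MCL1 is general knowledge. All 8 members were named, with each region within 5 kb. Members and lists were chosen with earlier results of these data known. A pair is an untreated region and the MST-312 region sharing at least 1 bp, the one of highest pileup where there were several. Local background is (pileup + 1) / fold enrichment − 1. Overlap was tested on simulated data and computed with Python 3.11.15, numpy 2.4.6, pandas 2.3.3 and scipy 1.17.1; figures used matplotlib 3.10.9. Alternatives covered the window, overlap rule, scaling and q threshold.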

Additional observations from a re-analysis of the deposited data

How the results depend on the processing

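Of 28 alternative values for the counts of genes, the share with a partner and the median ratios, 27 stayed within set limits. The limits were 1.5 times for counts, the Clopper-Pearson interval for shares and 1 SD of the pairs for width ratios. For the median pileup ratio the limit was the counting interval of the ratio of summed pileups (0.66 to 0.78). The limits for counts and shares were wide, the latter from 51.6 to 97.9%, so staying within them is a weak check. The median pileup ratio of 0.73 moved to 0.80 when scaled to kept tags, which by construction raises each ratio by the same factor. Within 1 kb, 7 genes were listed in both lists, since the BCL2 summits lie further out, and at a −log10 q of at least 26 it was 7 for want of BAK1 in the MST-312 list. Partners were found for 75% of untreated member regions when an overlap of 50% of each region was required, for 58.3% when summits had to be 100 bp or less apart, and for 91.7% when a gap of up to 1 kb was allowed, against 44.4%, 39.3% and 58.4% of all untreated regions. No paired analysis was possible because each condition is 1 library; for the same reason no replicate could be left out. Depth is known only as kept tags.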

Other observations

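Beyond the start sites, from 5 to 50 kb away, the 8 genes were surrounded by 37 untreated and 30 MST-312 regions, which were not assigned to any gene. Of these, 22 untreated regions (59.5%) and 21 MST-312 regions (70.0%) had a partner, against 53.6% and 63.3% over the whole lists. The MST-312 pileup was lower in 16 of the 22 pairs and higher in 4, with a median ratio of 0.76, against 85% lower and a median of 0.69 over all pairs. The untreated regions 6410 bp downstream of BBC3 and 5040 bp downstream of PMAIP1 were paired with MST-312 regions at 4724 and 4902 bp. Those MST-312 regions lie within 5 kb and were also counted for the genes above. At BCL2L11, 1 MST-312 region of 85 fragments overlapped 2 untreated regions, of 145 fragments at 36238 bp and 49 at 37030 bp downstream, and so counts once as lower and once as higher. The region 11571 bp upstream of BBC3 (47747270 to 47747838) had 134 fragments without treatment and 163 after MST-312, a ratio of 1.22 (95% counting interval 0.96 to 1.54), or 1.34 scaled to kept tags, and only 5.35% of all pairs had a higher ratio. It thus went the other way from the BBC3 region 2369 bp downstream of the start site, whose ratio was 0.48. On the far side, the region 23818 bp upstream of BBC3 had 107 and 48 fragments, a ratio of 0.45 (0.31 to 0.64).

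Around BAX, the broad untreated regions at 11221 bp (49467039 to 49470307, 3269 bp) and 38523 bp (49495403 to 49497707, 2305 bp) downstream had MST-312 partners of 992 and 466 bp. Their pileups were 124 and 63 fragments at the first, and 109 and 45 at the second. Without a partner were 15 untreated regions, with pileups up to 89 fragments, and 9 MST-312 regions, with pileups up to 78. The strongest of the untreated ones lay 49684 bp upstream of MCL1 (89 fragments, −log10 q 52.9), 29745 bp upstream of BBC3 (74 fragments, 43.3), 15481 bp upstream of BCL2L1 (73 fragments, 42.3) and 26458 bp downstream of BCL2 (71 fragments, 52.6). Also downstream of the BCL2 start site, the MST-312 list held 3 regions without an untreated partner, at 7705, 11155 and 19368 bp, with pileups of 37, 36 and 43 fragments and −log10 q values of 17.5, 15.5 and 15.5, near the lowest listed value of 13.02. Near BCL2L11, 3 MST-312 regions without a partner had 76 fragments at 49058 bp upstream, and 78 and 35 at 46863 and 47780 bp downstream. These regions were picked for description after their values were seen, and no difference among them was tested.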
